A study of Mus musculus with 2 samples.

Results

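The genes of the follicular regulatory T cell program were followed in regulatory T cells (Tregs) of the mouse spleen, across a library of cells with a low PPARg reporter signal and a library of cells without it. There are 8 members of the 28692 genes in the files, chosen by name. They include the transcription factor genes Bcl6, Ascl2, Tox and Tox2 and the secreted factor gene Sostdc1. The others are the surface receptor gene Slamf6, the surface ligand gene Cd200 and the adaptor gene Sh2d1a. Members with 30 or more UMIs (molecular tags, by which each captured transcript is counted a single time) over both libraries counted as measured. These were 6 of 8, beside 9224 of all genes; Ascl2 and Sostdc1 fell short.

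Both groups came from male B6 Pparg-Tdt.Foxp3-Gfp mice aged 8 weeks, which carry a red fluorescent reporter for Pparg and a green fluorescent reporter for Foxp3. CD4 Tregs were sorted from 2 or 3 pooled spleens into a PPARg-low and a PPARg-negative fraction, and each fraction gave 1 library of droplet-based 3′ single-cell RNA sequencing. No treatment or deletion is named for either group. With 1 library a group and no separate mice there was no replicate check and no test between the groups. All intervals below are exact 95% intervals that cover counting error only, and PCR copies were already collapsed by the UMIs.

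Follicular regulatory T cells are Tregs that enter the B cell follicles of spleen and lymph nodes and restrain germinal centre responses, in which B cells mature under the help of follicular helper T cells. Both kinds of cell depend on the repressor BCL6, move to the follicle with the chemokine receptor CXCR5, and carry high PD-1 (Pdcd1) and ICOS. TOX and TOX2 are related DNA-binding proteins of follicular and of chronically stimulated T cells, SLAMF6 is a receptor that signals through the adaptor SAP (Sh2d1a) when T cells touch B cells, and CD200 is a surface ligand of the inhibitory receptor CD200R1.

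With barcodes above 10% mitochondrial UMIs removed, the analysis used 1619 PPARg-low cells with 2901710 UMIs and 2633 PPARg-negative cells with 5897260 UMIs, at medians of 1517 and 2171 UMIs per cell. Cells with under 20% of their UMIs from ribosomal protein genes, called ribosome-poor, made up 58.7% of the PPARg-low library and 23.3% of the other, and they were shallower, at medians of 978 and 853 UMIs. All 7 of the Treg markers looked for were found in both libraries. Foxp3 had 100 and 146 UMIs, and Pparg had 43 UMIs in the PPARg-low and 0 in the PPARg-negative library. The median gene lay 0.29 higher on the log2 scale in the PPARg-low library, 0.23 among ribosome-rich and 0.02 among ribosome-poor cells.

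Bcl6, Ascl2 and Sostdc1 were scarce in both libraries. Bcl6, the master regulator of the follicular fate (mm10 chr16:23965052-23988852, minus strand), had 10 UMIs among PPARg-low and 24 among PPARg-negative cells. That is 3.45 CPM (CPM is the number of the gene's UMIs in each 1e6 UMIs of that library; 1.65 to 6.34) and 4.07 CPM (2.61 to 6.06). The intervals overlapped, and PPARg-low over PPARg-negative gave 0.847 (0.361 to 1.84), so a difference was not detectable at this depth. Each of the 34 UMIs came from a cell of its own. Ascl2, a basic helix-loop-helix factor that can start the follicular program (chr7:142966829-142969264, minus strand), was at 0 UMIs in the PPARg-low and 2 in the PPARg-negative library. Sostdc1, the gene of a secreted antagonist of BMP and WNT signals (chr12:36314139-36318452, plus strand), had 0 UMIs in both. A count of 0 was read against a floor of 3 counts, which is 1.03 CPM in the PPARg-low and 0.509 CPM in the PPARg-negative library. As a share of cells the floor is 0.185% of 1619 and 0.114% of 2633. The exact upper bounds for 0 UMIs were wider, at 1.27 and 0.626 CPM and at 0.228 and 0.140% of cells. No ratio was formed for Ascl2 or Sostdc1. Among the barcodes before the mitochondrial filter, Bcl6 had 14 and 25 UMIs, Ascl2 still 0 and 2, and Sostdc1 still 0 in both.

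Cxcr5, the receptor that brings follicular T cells to B cells, had 31 UMIs (10.7 CPM, 7.26 to 15.2) in the PPARg-low and 96 UMIs (16.3 CPM, 13.2 to 19.9) in the PPARg-negative library. It was lower in the PPARg-low library, at a ratio of 0.656 (0.423 to 0.993). Among ribosome-poor cells the ratio was 0.244 (0.113 to 0.495) and among ribosome-rich cells 0.838 (0.476 to 1.41). B cells also express Bcl6, Cxcr5 and Cd200. Markers of B cells were detected in both libraries. Cd79b had 92 UMIs in the PPARg-low and 132 in the PPARg-negative library (31.7 and 22.4 CPM), Cd79a 4 and 29, H2-Aa 3 and 32, H2-Eb1 10 and 31, Cr2 4 and 6, Ms4a1 1 and 3, and Fcer2a 0 in both. The list of 9 summed to 559 and 160 CPM, of which Cd74 made 520 and 121. The part of these markers in the levels of the members was not tested. No Bcl6 UMI lay in the 14 PPARg-low and 12 PPARg-negative cells with 2 or more B cell marker UMIs (Cd74 and the H2 genes left out), and 2 Cd200 UMIs did in each library.

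Tox and Tox2 were higher in the PPARg-low library. Tox (chr4:6686353-6991557, minus strand) had 870 UMIs among PPARg-low cells, or 300 CPM (280 to 320), against 655 UMIs, or 111 CPM (103 to 120), in the PPARg-negative library. The intervals lay far apart, and the ratio was 2.70 (2.44 to 2.99). Tox2 (chr2:163203125-163324170, plus strand) had 79 UMIs, or 27.2 CPM (21.6 to 33.9), against 28 UMIs, or 4.75 CPM (3.15 to 6.86). Its ratio was 5.73 (3.68 to 9.17), with a wider interval for its fewer counts. These were the 2 of 6 measured members called higher, that is at a ratio of 1.5 or more with the interval above 1, and 0 were called lower by the same measure in the other direction. Of all measured genes, 24.2% were called higher and 4.47% lower, so calls in the first direction were common in this comparison. The median log2 ratio of the 6 members was 0.42 beside 0.29 for all genes.

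**Figure D1:**
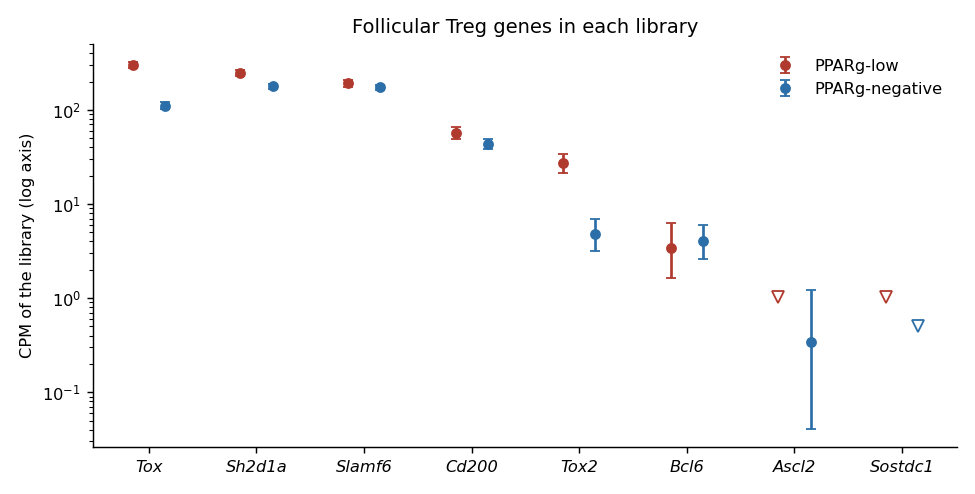
Level of each gene in the PPARg-low (red) and PPARg-negative (blue) library as CPM on a log axis; dots are the value of 1 library, bars the exact Poisson 95% interval, and open triangles mark the limit that 0 UMIs allow (1.03 and 0.509 CPM). The bars of Tox and of Tox2 lie apart, those of Slamf6 and of Bcl6 overlap, and Sostdc1 has no counts.

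Slamf6, Cd200 and Sh2d1a were not called in either direction. Sh2d1a, which encodes the adaptor SAP that lets SLAM receptors sustain contact with B cells (chrX:42502453-42529330, plus strand), had 714 UMIs (246 CPM, 228 to 265) in the PPARg-low and 1057 UMIs (179 CPM, 169 to 190) in the PPARg-negative library. Its interval of 1.25 to 1.51 around a ratio of 1.37 lay above 1, but the ratio missed the fold of 1.5. Cd200 (chr16:45382135-45409053, minus strand) had 166 UMIs (57.2 CPM, 48.8 to 66.6) and 258 UMIs (43.7 CPM, 38.6 to 49.4), a ratio of 1.31 (1.07 to 1.60). With ribosomal UMIs left out of the totals the ratios were 1.14 (1.03 to 1.25) for Sh2d1a and 1.08 (0.886 to 1.32) for Cd200. As a mean over cells they were 1.22 (1.11 to 1.35) and 1.21 (0.987 to 1.47). For Slamf6, the receptor itself (chr1:171917515-171953170, plus strand), the counts were 556 UMIs (192 CPM, 176 to 208) and 1026 UMIs (174 CPM, 163 to 185). The intervals of Slamf6 overlapped, at a ratio of 1.10 (0.992 to 1.22), which was 0.913 with ribosomal UMIs left out of the totals and 0.969 as a mean over cells. The median gene stood at 1.22-fold in this comparison. Genes annotated on the opposite strand overlap Bcl6, Tox, Slamf6 and Sh2d1a (Gm37419, Gm11802, Gm37065 and Tenm1), and whether the counting used strand is not given in the sources used here.

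Set within ribosome-rich and ribosome-poor cells, the members did not keep a common pattern. Among ribosome-rich cells Tox had 247 CPM in the PPARg-low and 96.2 CPM in the PPARg-negative library, a ratio of 2.57 (2.26 to 2.93), and among ribosome-poor cells 379 and 230 CPM, a ratio of 1.65 (1.37 to 2). The ratio of Tox2 was 6.86 (4.03 to 12.1) among ribosome-rich and 2.52 (1.09 to 6.77) among ribosome-poor cells, the latter from 31 and 7 UMIs. Both genes were thus called higher among ribosome-rich and among ribosome-poor cells. Their levels in the 2 libraries within clusters are given below. Sh2d1a was called higher among ribosome-rich cells, with 297 against 179 CPM and a ratio of 1.66 (1.49 to 1.85), and stood at 169 against 183 CPM among ribosome-poor cells, a ratio of 0.924 (0.732 to 1.17). Slamf6 had 156 against 140 CPM among ribosome-rich cells, a ratio of 1.11 (0.966 to 1.28), and was called lower among ribosome-poor cells, with 246 against 448 CPM and a ratio of 0.549 (0.465 to 0.648). The ribosome-poor PPARg-negative cells thus had the highest level of Slamf6 among these 4 groups of cells. Cd200 stayed at 1.33 (1.04 to 1.69) and 1.30 (0.821 to 2.1). Calls over all genes were 17.2% higher and 3.92% lower among ribosome-rich cells, and 6.82% higher and 5.4% lower among ribosome-poor cells, beside 3 higher and 0 lower, and 2 higher and 1 lower, of the 6 members.

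**Figure D2:**
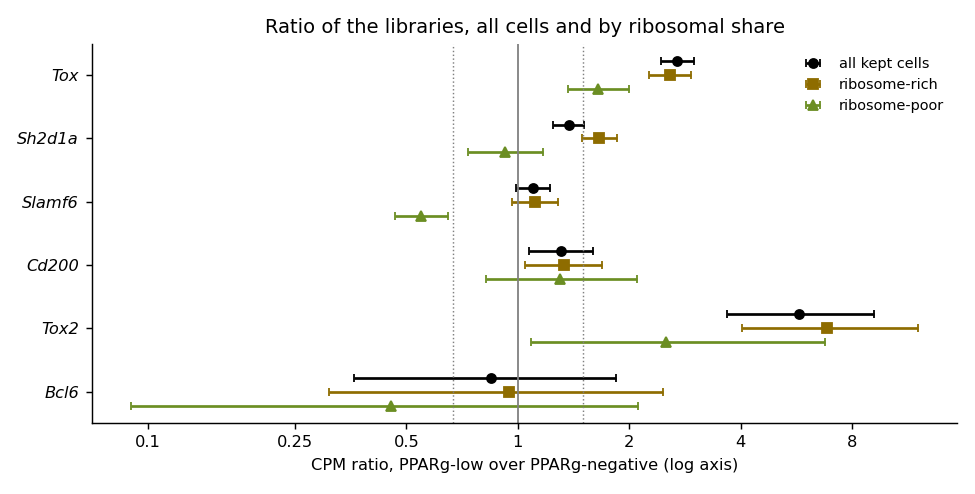
CPM ratio of PPARg-low over PPARg-negative for the 6 measured members (log axis) in all kept cells (black), ribosome-rich (brown squares) and ribosome-poor cells (green triangles); bars are exact conditional binomial 95% intervals, the solid line is 1 and the dotted lines are the fold of 1.5 in both directions. Tox and Tox2 lie to the right of 1 in all 3 sets, while Slamf6 crosses to 0.549 in ribosome-poor cells.

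Promoter sequence is shown for 3 members that stand for the outcomes above, the scarce regulator Bcl6, the gene with the largest ratio among the 6, Tox2, and Cd200, which was not called. The RefSeq table of GRCm38.p6 held 5 of the 8 members (Bcl6, Tox2, Ascl2, Slamf6 and Cd200). It listed 5 transcription starts for Tox2 and 2 for Bcl6. For each gene the listed start nearest to the annotated gene start was used, and other starts are not covered here. The 250 bases before that start are given 5′ to 3′ on the gene's strand. Capitals mark the only match to any of 4 motifs searched on both strands. The windows are chr16:23988853-23989102 (minus strand) for Bcl6, chr2:163202877-163203126 (plus strand) for Tox2 and chr16:45409054-45409303 (minus strand) for Cd200.
Bcl6: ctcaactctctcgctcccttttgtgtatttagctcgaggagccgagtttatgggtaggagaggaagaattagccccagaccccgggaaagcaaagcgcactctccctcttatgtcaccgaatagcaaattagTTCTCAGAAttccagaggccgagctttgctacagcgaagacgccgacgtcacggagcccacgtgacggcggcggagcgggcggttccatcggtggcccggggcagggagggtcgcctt
Tox2: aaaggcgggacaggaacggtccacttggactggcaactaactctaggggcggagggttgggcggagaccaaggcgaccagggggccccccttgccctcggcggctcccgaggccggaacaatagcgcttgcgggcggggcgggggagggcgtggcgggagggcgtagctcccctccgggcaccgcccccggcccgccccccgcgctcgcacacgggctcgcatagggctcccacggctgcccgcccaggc
Cd200: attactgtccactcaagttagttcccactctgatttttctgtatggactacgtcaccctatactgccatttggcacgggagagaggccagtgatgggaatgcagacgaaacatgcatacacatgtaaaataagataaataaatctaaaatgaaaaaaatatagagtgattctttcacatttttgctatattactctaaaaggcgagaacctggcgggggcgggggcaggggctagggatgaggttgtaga
The match in Bcl6 begins 118 bases before the start and is to TTCNNNGAA, a core shared by BCL6 and STAT sites, which 7.02% of 32851 promoter windows of this length held. The other motifs were TGACTCA of AP-1 (4.46% of windows), AGGTCA, a nuclear receptor half-site (14.0%), and the E-box CAGCTG (13%). No other match was found in the 5 windows. The base composition differed, with 75.2% G or C in Tox2, 58.4% in Bcl6 and 42.4% in Cd200.

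Shares of cells with a UMI were compared after each cell had been thinned to 750 UMIs, since the PPARg-negative cells were deeper. Cells with fewer UMIs, 238 and 239 of them, were not used here, so 1381 PPARg-low and 2394 PPARg-negative cells entered. Most cells left out were ribosome-poor, so the mix of cells changed too. Ribosome-poor cells went from 951 to 721 in the PPARg-low and from 614 to 414 in the PPARg-negative library. Ribosome-rich cells went from 668 to 660 and from 2019 to 1980. Tox had a UMI in 20% (17.9 to 22.2) of the PPARg-low and 7.85% (6.81 to 9) of the PPARg-negative cells, against 37.4 and 20% before thinning. Tox2 was found in 1.52% (0.944 to 2.32) and 0.292% (0.118 to 0.602), against 4.45 and 0.949% at full depth. The order of the libraries is the same as for the CPM values of both genes. The shares of the other measured members had overlapping intervals: 12.7 and 13.2% for Slamf6, 13.5 and 12.6% for Sh2d1a, 4.06 and 2.97% for Cd200, and 0.217 and 0.251% for Bcl6. At full depth they were 25.8 and 28.9%, 27.9 and 28.0%, 8.52 and 8.36%, and 0.618 and 0.912%. The clusters held no other cell type in which the share left by free RNA could be read. The B cell gene Cd79a, foreign to Tregs, had a UMI in 3 PPARg-low and 2 PPARg-negative thinned cells (0.217 and 0.0835%), beside 3 and 6 cells with Bcl6. In a second draw of the thinning Bcl6 was found in 6 and 10 cells and Cd79a again in 3 and 2. At full depth 10 and 24 cells had Bcl6 and 4 and 5 had Cd79a. The intervals of the 2 genes' shares overlapped in each of these sets except the PPARg-negative cells at full depth.

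Cells with several members were more frequent in the PPARg-low library. Of its thinned cells, 113 of 1381 (8.18%, 6.79 to 9.75) had UMIs of 2 or more measured members, against 119 of 2394 PPARg-negative cells (4.97%, 4.13 to 5.92). With 3 or more members there were 11 cells in each library. No member was found in 57.0% of PPARg-low and 68.3% of PPARg-negative cells. Tox by itself was found more often in the PPARg-low cells, in 20% against 7.85%. The part of such single shares in the cells with several members was not tested. The second draw gave 9.78% for the PPARg-low cells with 2 or more. Within ribosome-poor cells the shares were 9.15% (7.15 to 11.5) and 9.66% (6.99 to 12.9), with overlapping intervals, and within ribosome-rich cells 7.12% (5.28 to 9.36) and 3.99% (3.17 to 4.95).

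**Figure D3:**
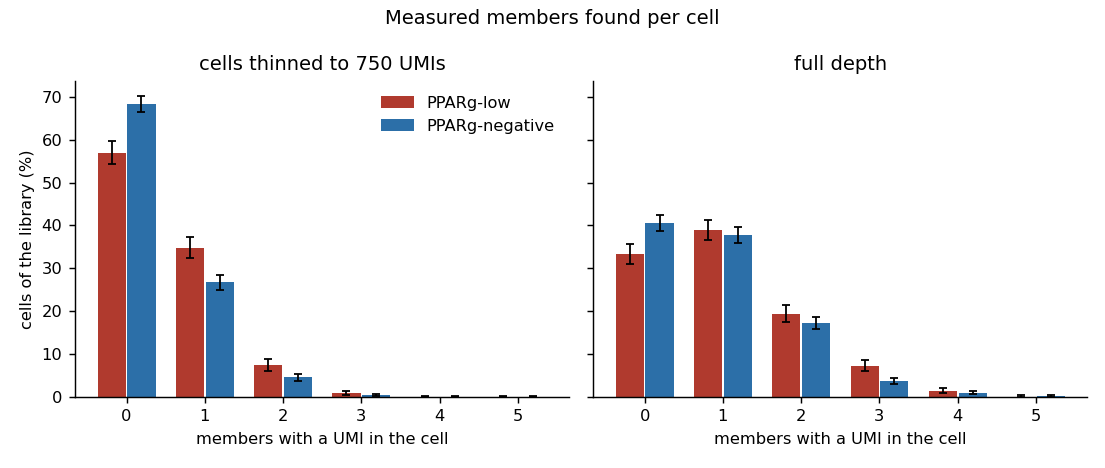
Share of cells (%) by the number of measured members with a UMI, for the PPARg-low (red) and PPARg-negative (blue) library, with cells thinned to 750 UMIs (left) and at full depth (right); bars on top are exact binomial 95% intervals. After thinning 8.18 and 4.97% of cells have 2 or more members, and at full depth 27.9 and 21.8%.

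After thinning, few pairs of members were counted as found together more often than their single shares would give. For each of the 15 pairs of measured members, the share of cells with the commoner gene was compared between cells with and without the rarer gene. The pair was counted where the exact binomial intervals did not overlap. Only 3 PPARg-low and 6 PPARg-negative cells had Bcl6, and 21 and 7 had Tox2. Pairs with these genes had wide intervals, so an overlap there does not show that the genes are unlinked. In the thinned PPARg-low cells 0 of 15 pairs were counted, in either direction. Of Tox2-positive PPARg-low cells 8 of 21 had Tox (38.1%, 18.1 to 61.6), against 19.7% (17.6 to 21.9) of the rest, and of Sh2d1a-positive cells 15% (10.2 to 20.9) had Tox, against 20.8% (18.5 to 23.2). The intervals overlapped in both cases, with the first share on the higher and the second on the lower side. For the SLAM receptor and its adaptor the intervals overlapped as well. Of Slamf6-positive cells 11.4% (7.12 to 17.1) had Sh2d1a, against 13.8% (11.9 to 15.9) of Slamf6-negative cells. Slamf6-positive cells were more often ribosome-poor than the rest, 62.9 against 50.7%, and Sh2d1a-positive cells less often, 39.6 against 54.2%. Within ribosome-rich and within ribosome-poor PPARg-low cells 0 of 15 pairs were counted.

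In the thinned PPARg-negative cells 2 of 15 pairs were counted. Of Tox-positive cells 40 of 188 had Sh2d1a (21.3%, 15.7 to 27.8), against 11.8% (10.5 to 13.3) of Tox-negative cells, and of 7 Tox2-positive cells 3 had Tox. Neither pair was counted in the second draw, where 28 of 172 Tox-positive cells had Sh2d1a (16.3%, 11.1 to 22.7) against 11.3% (10.1 to 12.7), and 0 of 9 Tox2-positive cells had Tox. Slamf6 with Sh2d1a again gave overlapping shares, 14.3% (10.5 to 18.8) of Sh2d1a-positive cells against 13% (11.6 to 14.6) of the rest. At full depth 5 pairs were counted in the PPARg-low and 9 in the PPARg-negative library, all toward joint detection. Cells with a member were deeper there. PPARg-low cells with Sh2d1a had a median of 2171 UMIs against 1183 without it, and those with Bcl6 2828 against 1515. In the PPARg-negative library the medians were 2562 against 2026 for Sh2d1a, 2537 against 2138 for Cd200 and 2314 against 2144 for Tox. For Slamf6 they were 2262 against 2143 and for Tox2 2175 against 2171. The part of depth in the counted pairs was not tested. Of the 24 Bcl6-positive PPARg-negative cells at full depth, 11 had Tox (45.8%, 25.6 to 67.2, against 19.7%, 18.2 to 21.3), at median depths of 2502 and 2170 UMIs.

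**Figure D4:**
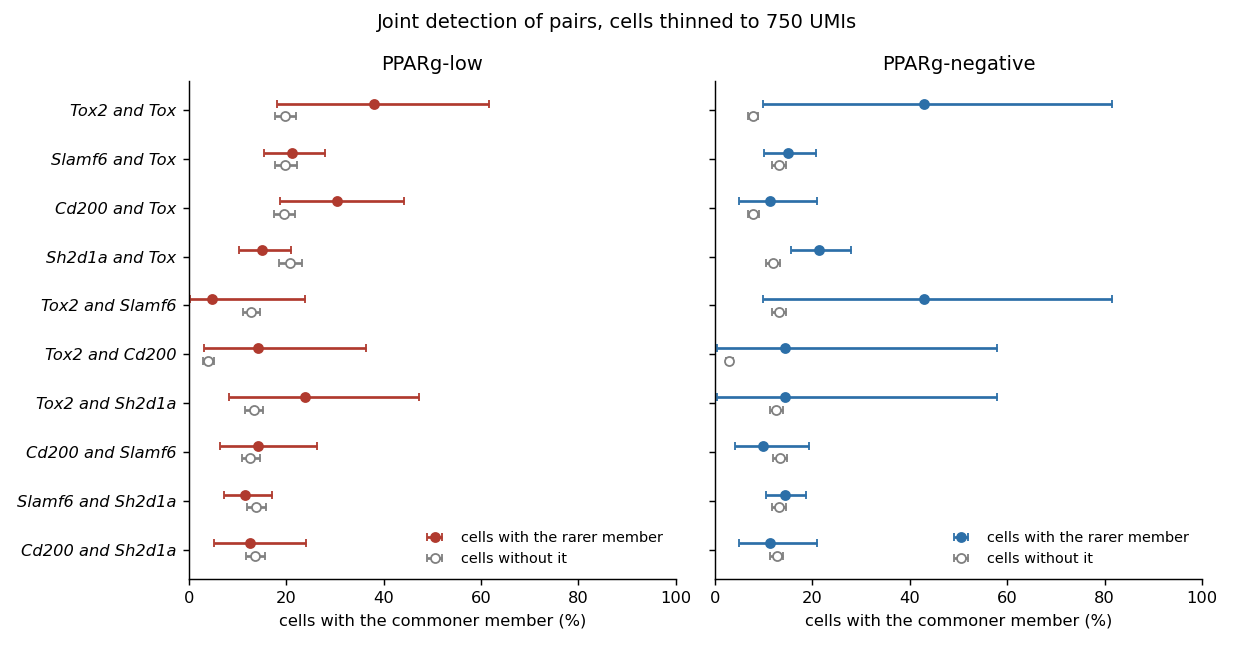
Share of cells (%) with the commoner gene of each pair among cells with the rarer gene (filled) and without it (open), in the PPARg-low (left) and PPARg-negative library (right), cells thinned to 750 UMIs; bars are exact binomial 95% intervals and the 5 pairs with Bcl6, which had 3 and 6 positive cells, are not drawn. Filled and open bars overlap for each pair shown in the PPARg-low library, and Sh2d1a with Tox (21.3 against 11.8%) and Tox2 with Tox (3 of 7 cells) stand apart in the PPARg-negative library.

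The receptor gene Pdcd1, which was no criterion for the members, was found more often in cells with Tox. In thinned PPARg-low cells Pdcd1 was found in 35.5% (29.9 to 41.5) of Tox-positive and 26.2% (23.6 to 28.9) of Tox-negative cells, and in PPARg-negative cells in 8.51% (4.94 to 13.5) and 2.45% (1.84 to 3.18). The intervals did not overlap in either library. Cells with Tox were also more often ribosome-poor, 63.4 against 49.4% in the PPARg-low and 28.7 against 16.3% in the PPARg-negative library, and Pdcd1 was commoner in ribosome-poor cells. Among ribosome-rich cells Pdcd1 was found in 27.7% (19.3 to 37.5) of Tox-positive and 19.1% (16.0 to 22.7) of Tox-negative PPARg-low cells, and among ribosome-poor ones in 40% (32.7 to 47.7) and 33.3% (29.4 to 37.5). The PPARg-negative shares were 5.97% (2.61 to 11.4) and 1.63% (1.10 to 2.31) in ribosome-rich, and 14.8% (6.62 to 27.1) and 6.67% (4.32 to 9.76) in ribosome-poor cells. The share was thus higher with Tox in all 4 groups of cells, with intervals that lay apart only in the ribosome-rich PPARg-negative cells.

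Icos, the costimulatory receptor, was found in 18.6% (13.3 to 24.9) of Tox-positive and 11.0% (9.74 to 12.4) of Tox-negative PPARg-negative cells, and in 33.3% (27.8 to 39.2) and 29.2% (26.6 to 32.0) of the PPARg-low cells. Slamf6-positive PPARg-negative cells had Icos in 19.3% (15.1 to 24.1), against 10.4% (9.16 to 11.8) of the others, and 35.1% of them were ribosome-poor, against 14.6%. Within ribosome-rich PPARg-negative cells these Icos shares were 5.85 and 5.75%, and within ribosome-poor ones 44.1 and 38%, with overlapping intervals. For Tox they were 6.72 and 5.69%, and 48.1 and 38.3%, likewise overlapping. Sh2d1a-positive PPARg-low cells had Klrg1, a marker of terminal effector cells, in 31.0% (24.5 to 38.2), against 42.7% (39.9 to 45.6), and 39.6% of them were ribosome-poor, against 54.2%. Within ribosome-rich cells the Klrg1 shares were 27.4 and 28.3%, and within ribosome-poor cells 36.5% (25.6 to 48.5) and 54.9% (50.9 to 58.8). Only 8 PPARg-low and 33 PPARg-negative thinned cells had Cxcr5, and 3 and 6 had Bcl6, too few to read whether they occur together.

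Cells with 2 or more members were also compared with cells with none, by the sums of their full counts. Cxcr5, which is no member, was higher in them in both libraries, at 3.72-fold (1.47 to 8.72) from 9 against 18 UMIs in the PPARg-low and 3.20-fold (1.51 to 6.18) from 11 against 54 UMIs in the PPARg-negative library. Of 3698 genes tested in the PPARg-low library 2.54% were called higher and 1.84% lower in cells with several members, and of 4973 in the PPARg-negative library 7.4 and 1.25%. Leading genes of the PPARg-low cells with several members were the granule gene Nkg7 at 2.21-fold (1.65 to 2.91), Tbc1d4, a regulator of glucose transporter traffic, at 2.59-fold (1.54 to 4.22), the cystatin gene Cst7 at 1.84-fold (1.5 to 2.23) and the E protein inhibitor Id3 at 1.85-fold (1.36 to 2.49). Supt16, Zc3h12d, Igf1r and Pqbp1 were the others, with 2.16 to 2.65-fold. Stmn1, Snx1, Zmiz2 and Gusb were the lowest, and Stmn1, a gene of dividing cells, had 0 against 127 UMIs.

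In the PPARg-negative library Plac8 led at 4.85-fold (2.82 to 8.00), from 21 against 68 UMIs. Pdcd1 was 3.96-fold (2.49 to 6.09) and the transcription factor gene Maf 3.18-fold higher (2.34 to 4.26) in cells with several members. Others were S100a4 at 2.87-fold (2.21 to 3.68), S100a6 at 2.56-fold and the invariant chain gene Cd74 at 2.86-fold (2.21 to 3.65), besides Smco4 and Glb1. Eno3 and Exosc7, at ratios of 0.106 and 0.220, and Fadd and Sac3d1, with 0 against 90 and 0 against 83 UMIs, were the lowest. Cells with several members were more often ribosome-poor, 33.6 against 14.4% in the PPARg-negative and 58.4 against 49.7% in the PPARg-low library. Within ribosome-rich PPARg-negative cells Pdcd1 was 5.40-fold (3.19 to 8.80) and Maf 3.48-fold (2.21 to 5.28) higher, while within ribosome-poor ones they were at 0.891 (0.272 to 2.29) and 1.28 (0.828 to 1.93). Cd79a had 1 against 28 UMIs in these PPARg-negative cells.

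To see where the members lie among the cells, both libraries were clustered without them, and their CPM was read in the 12 sums of a cluster and a library that held 50 or more cells. These levels are descriptions, since the cells themselves made the clusters. A cluster of 328 cells led by Tbc1d4 together with Marcksl1, Sh3gl3, Hivep3, Rgs16, Pdcd1lg2 and Egr2, held the highest levels of 4 genes. It had 194 PPARg-low and 134 PPARg-negative cells and no name from the marker lists, and it was singled out after its values had been seen. Cxcr5 was itself among its 10 leading genes by fold. It had 36.5 CPM (20.9 to 59.3) in the PPARg-low and 57.4 CPM (33.4 to 91.8) in the PPARg-negative cells of this cluster, against 6.09 and 14.1 CPM in the rest of each library.

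In the same cluster Bcl6 had 11.4 CPM (3.70 to 26.6) from 5 of its 10 UMIs in the PPARg-low library and 13.5 CPM (3.68 to 34.6) from 4 of its 24 UMIs in the PPARg-negative library. The other 10 sums ran from 0 to 6.68 CPM, and their intervals overlapped with these. Cd200 had 114 CPM (84.7 to 150) and 94.5 CPM (62.8 to 137) there, beside 80.4 CPM (58.4 to 108) in the Il10 and Ccr8-led cluster of the PPARg-low library and 21.8 to 50.1 CPM elsewhere. Sh2d1a had 424 CPM (366 to 490) and 351 CPM (287 to 425), beside 310 and 301 CPM in a cluster led by Plac8 and 133 to 228 CPM in the rest. Neighbouring sums in these orders had overlapping intervals.

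Tox and Slamf6 had other maxima. Tox was highest at 431 CPM (378 to 490) in the Il10, Ccl4 and Ccr8-led effector Treg-like cluster of the PPARg-low library, and lowest at 66.0 CPM (55.2 to 78.3) in the resting Treg-like cluster of the PPARg-negative library. In the Tbc1d4-led cluster it had 324 CPM (273 to 382) in PPARg-low and 321 CPM (259 to 392) in PPARg-negative cells, so the libraries did not differ there beyond counting error. In the Trf and Penk-led cluster Tox had 309 CPM (277 to 345) in PPARg-low and 251 CPM (155 to 383) in PPARg-negative cells. The cluster led by Ccr2, Gzmb and Itgae gave 213 CPM (171 to 263) and 164 CPM (128 to 207). The Plac8-led cluster gave 197 CPM (152 to 250) and 135 CPM (109 to 166). The intervals of the libraries overlapped in each of these clusters. Tox2 in that cluster had 36.5 CPM (20.9 to 59.3) and 16.9 CPM (5.48 to 39.4). Its highest sum was 59.7 CPM (19.4 to 139), from 5 UMIs in 60 PPARg-negative cells of the Trf and Penk-led cluster. Slamf6 was highest, at 450 CPM (389 to 518), in the PPARg-negative cells of a cluster led by Ccr2, Gzmb and Itgae, of which 89.6% were ribosome-poor. In the PPARg-low cells of that cluster, 86.3% of them ribosome-poor, it had 315 CPM (263 to 374).

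**Figure D5:**
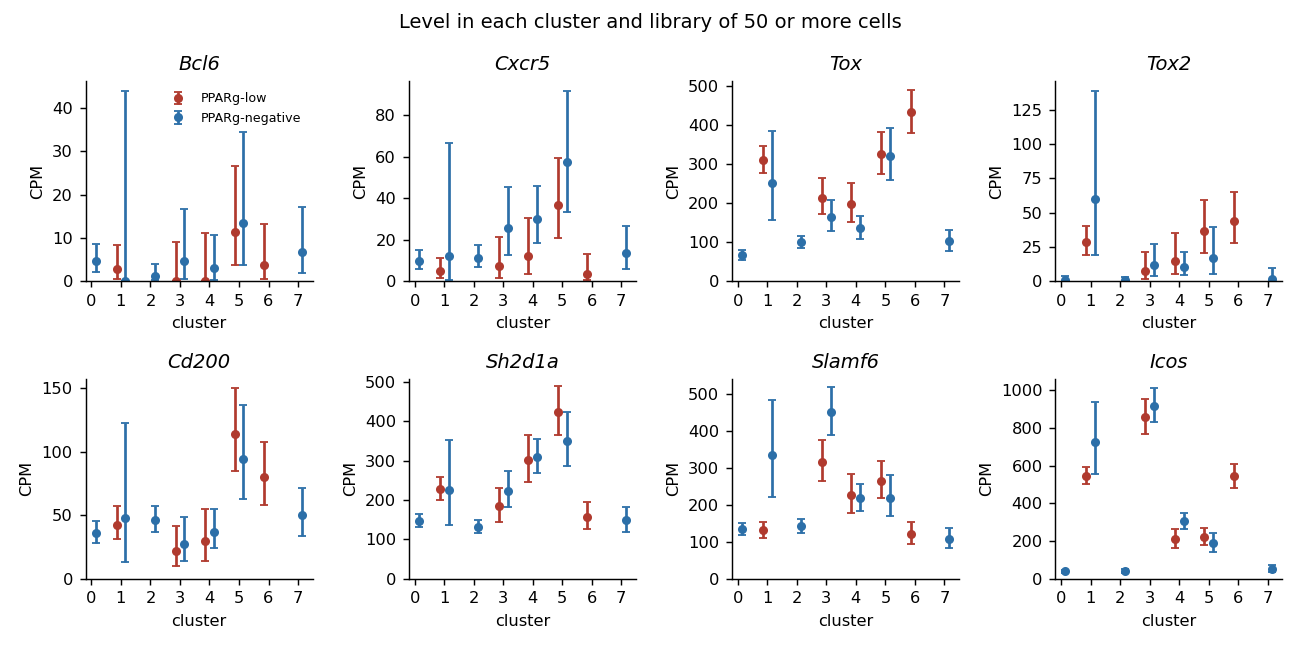
CPM (linear axis from 0) of 6 members and of Cxcr5 and Icos in each cluster and library of 50 or more cells, PPARg-low in red and PPARg-negative in blue, with exact Poisson 95% intervals. Cluster 5 is the Tbc1d4-led cluster, where Bcl6, Cxcr5, Cd200 and Sh2d1a have their highest values (for Cxcr5 36.5 and 57.4 CPM), while Tox peaks in cluster 6 and Slamf6 in cluster 3.

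The share of thinned cells with 2 or more members was 13.5% (8.77 to 19.6) in the PPARg-low and 14.0% (8.40 to 21.5) in the PPARg-negative cells of the Tbc1d4-led cluster. In the other sums of 50 or more cells it was 6.57 to 7.69% in the PPARg-low library, with intervals that overlapped this one, and 1.88 to 12.0% in the PPARg-negative library, where the intervals of 3 of the 6 other sums lay below it. Icos, high in follicular cells, had 219 CPM in the PPARg-low and 189 CPM in the PPARg-negative cells of this cluster, against 531 and 163 CPM in the rest of the libraries. Pdcd1 had 322 and 135 CPM against 488 and 27.9 CPM.

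Across the 12 sums, Pearson's r of log2(CPM + 10) is given as a description; the sums share depth, library and ribosomal share. Tox and Tox2 followed each other at r = 0.86, Slamf6 and Cd200 had r = -0.25, and the 8 other pairs without Bcl6 lay between 0.22 and 0.51. The genes most like Tox were Itgb8, the integrin chain of the TGF-beta activating integrin (0.98), Rilpl2 (0.97) and Cst7 (0.96). Those most like Tox2 were Agfg1, Morf4l1 and H2afj (all 0.94), and those most like Slamf6 were Orai2, Mapre1 and Lrch4 (all 0.88). Fam162a, Mrps6 and Txn2 (0.92 to 0.90) were most like Cd200, and Stxbp2, Psmd9 and Ubxn2a (0.87 to 0.85) most like Sh2d1a.

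Related genes from fixed lists put the members in context, with 24.2% of all genes called higher and 4.47% lower. All 10 effector Treg markers were called higher in the PPARg-low library, with a median log2 ratio of 3.14. All 9 resting Treg markers were called lower, with a median of -3.16. Pdcd1, Icos, Maf and Id2 of the lists below are also effector Treg markers, and Tcf7 and Ccr7 are also resting Treg markers. Of 12 follicular surface receptor genes, 6 were called higher and 1, Cxcr5, lower in the PPARg-low library, with a median log2 ratio of 0.58. Pdcd1 had 463 against 33.2 CPM, the inhibitory receptor Tigit 35.8 against 5.43 CPM, and the costimulatory receptor Tnfrsf4 2715 against 543 CPM. Their ratios of 13.9, 6.61 and 5 were 6.62, 3.18 and 2.87 among ribosome-poor cells. Icos had 484 against 165 CPM, a ratio of 2.94 (2.70 to 3.19) that was 1.02 (0.917 to 1.14) among ribosome-poor cells. Of 11 measured follicular transcription factor genes, 5 were higher and 3 lower. Maf stood at 3.67-fold (3.30 to 4.08) and Batf at 3.55-fold (3.22 to 3.93), while Tcf7 was at 0.257 (0.209 to 0.314). Maf was at 1.17 (1.01 to 1.36) among ribosome-poor cells.

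Genes that oppose the follicular program were divided, with 5 higher, 5 lower and 6 uncalled of 16. Prdm1, the repressor that BCL6 counters, was higher at 4.24-fold (3.17 to 5.72), and Id2, an inhibitor of E proteins, at 6.77-fold (5.78 to 7.95). The T zone homing receptor Ccr7 was lower at 0.112 (0.0831 to 0.147). Among ribosome-poor cells the ratios were 1.77 (1.19 to 2.69) for Prdm1, 2.54 (1.94 to 3.38) for Id2 and 0.0737 (0.0390 to 0.129) for Ccr7. Follicular cytokines were near 0: Il21 had 0 UMIs in both libraries, Il4 9 and 0, and Cxcl13 1 and 0. The interleukin 1 decoy receptor gene Il1r2 and the interleukin 1 receptor antagonist gene Il1rn were the 2 measured genes of that list, and both were higher. Il1rn had 37 UMIs against 1. Il1r2 was at 21.3-fold (13.3 to 36.1), and at 6.08 (3.44 to 11.7) among ribosome-poor cells. It was also a leading gene of the Il10 and Ccr8-led cluster. In PPARg-low cells of the Tbc1d4-led cluster Il1r2 had 38.8 CPM against 73.9 CPM in the rest, a ratio of 0.525 (0.299 to 0.864). In PPARg-negative cells that ratio was 3.54 (0.662 to 12.4), from 3 against 16 UMIs.

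Of 9 measured SLAM receptor and SAP signalling genes, 5 were called higher and 0 lower. Inpp5d, a phosphatase recruited by SLAM receptors, was at 2.02-fold (1.68 to 2.43), Slamf1 at 1.83-fold (1.54 to 2.18) and Cd48 at 1.65-fold (1.54 to 1.77). Among ribosome-poor cells none of these 3 was called, with Inpp5d at 1.28 (0.937 to 1.76), Slamf1 at 1.02 and Cd48 at 0.860. Cd200r1, the receptor of CD200, had 395 UMIs (136 CPM) against 122 UMIs (20.7 CPM), a ratio of 6.58 (5.36 to 8.13), and 2.85 (2.07 to 4.01) among ribosome-poor cells. Of 5 BCL6 corepressor genes only Hdac4 was called, higher at 1.53-fold (1.15 to 2.05), while Bcor and Ncor1 had ratios of 1.47 (1.07 to 1.99) and 1.32 (1.21 to 1.43). Bcor was at 0.644 (0.383 to 1.09) among ribosome-poor cells. Tox4, the paralog of Tox that was measured, had a ratio of 1.11 (0.898 to 1.37), and Tox3 had 0 UMIs in both libraries. Of 5 measured BMP and WNT genes, the pathways that SOSTDC1 blocks, the receptor gene Bmpr2 was higher at 3.12-fold (1.93 to 5.11) and Ctnnb1 had a ratio of 1.37 (1.14 to 1.64).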

How the data were processed

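The authors deposited raw, unnormalised UMI counts by gene and barcode, 1 matrix for each of 2 libraries. The submitters' processing notes name mm10 and Cell Ranger 2.1.0. How cells were called, and with which annotation genes were counted, is not given in the sources used here. File names of the PPARg-low library carry the tag pos, in conflict with its label; the label was followed and the conflict could not be settled.

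Cells with over 10% mitochondrial UMIs (373 PPARg-low and 269 PPARg-negative barcodes) or under 200 genes were left out. Scrublet in scanpy 1.11.5 marked 11 and 8 of the kept cells, which were kept; under 0.5% of the PPARg-negative cells were marked, so undetected doublets are possible. In all, 5 barcode sequences occurred in both libraries. UMIs were summed by library. Ratios have exact conditional binomial intervals, levels exact Poisson and shares exact binomial (Clopper-Pearson) intervals. A call needed a fold of 1.5 with the interval on that side of 1. The method was tested on simulated data. A count of 0 was read against a floor of 3 counts.

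Clusters came from log counts per 10000 of the deposited UMIs, 2000 variable genes (ribosomal, mitochondrial, T cell receptor and immunoglobulin genes and the 8 members left out), 15 neighbours in 20 components and Leiden at resolution 1 (leidenalg 0.10.2). A name needed 3 or more markers among the 10 leading genes. Coordinates are from GENCODE M21 (mm10), and promoters from RefSeq.

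The members, lists, the split at 20% ribosomal UMIs and the rules were chosen with earlier results of these data known. Named genes were the members, Foxp3, Pparg, Cxcr5, Pdcd1 and Icos, up to 3 genes per list by the interval bound nearest to 1, 3 genes most like each member with 100 or more UMIs, and the 8 highest and 4 lowest genes in cells with several members; the remaining B cell markers, Il21, Il4, Cxcl13, Tox3 and Tox4 were given outside this rule, after their values were seen. The values of 1 marker gene on its own are not reported here. Alternatives covered cell filters, doublets, B cell marker cells, scaling, weights, count minimums, folds and thinning. Other cluster settings, and Pdcd1, Icos and Klrg1 within ribosome-rich and ribosome-poor cells, were added after seeing the data. Scripts ran in Python 3.11.15 with pandas 2.3.3, scipy 1.17.1, matplotlib 3.10.9 and numpy 2.4.6.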

Additional observations from a re-analysis of the deposited data

Results flagged for a closer look

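Slamf6 and Sh2d1a had ratios of PPARg-low over PPARg-negative on opposite sides of 1 in the 2 kinds of cells. For Slamf6 the ribosome-rich cells gave 1.11 and the ribosome-poor cells 0.549. The corresponding values of Sh2d1a were 1.66 and 0.924. With 1 library per group the difference between the kinds of cells was not tested, for either gene. The interval of Slamf6 in ribosome-rich cells (0.966 to 1.28) and that of Sh2d1a in ribosome-poor cells (0.732 to 1.17) held 1.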

How the results depend on the processing

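For the counts of members, their median, the pairs and the shares of cells, 48 alternative values stayed close to the reported value and 17 moved, where close means within 1.5 times for a count, inside its interval for a share, and between the medians of the members' lower and upper bounds for the median. The number of members lower in the PPARg-low library was 1 instead of 0 among ribosome-poor cells. Their median log2 ratio of 0.42 became 0.14 relative to the median gene, 0.15 with ribosomal UMIs left out of the totals and 0.13 among ribosome-poor cells. Without thinning, 5 pairs were counted in the PPARg-low and 9 in the PPARg-negative library, and 27.9 and 21.8% of cells had 2 or more members. Thinned to 1000 UMIs, 12.7 and 7.85% of cells had 2 or more, and 1 PPARg-negative pair was counted. The second draw gave 9.78% in the PPARg-low library and 0 PPARg-negative pairs. Among PPARg-negative cells the share was 3.99% with 1 pair in ribosome-rich and 9.66% with 0 pairs in ribosome-poor cells. The cause of these moves was not tested, except that deeper cells yield more members by construction. Ratios of single members moved beyond their interval in 10 alternative values and stayed within it in 32, and none that was called changed side. The 56 levels in the Tbc1d4-led cluster under 4 other cluster settings, chosen after seeing the data, stayed within counting error. Most cells were the same, so these values are not independent of the reported ones. At resolution 0.7, 160 of 162 PPARg-low and 108 of 115 PPARg-negative cells were shared with the reported cluster. With the members allowed among the variable genes, 154 of 205 and 112 of 181 were. The number of members higher in the PPARg-low library was 2 or 3 in each setting tried. No paired analysis was possible because each group has 1 library. Depth limits Bcl6, Ascl2 and Sostdc1 most.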
